A study of Mus musculus with 6 samples.

Results

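The Hox cluster genes are the homeobox genes that lie in 4 tight clusters of the mouse genome, and they were followed here through the 6 RNA-seq tables of the embryonic brain. Members were chosen by name: every RefSeq transcript ID whose mouse symbol was Hox, a cluster letter (a, b, c or d) and a number was kept. This gave 36 IDs for 35 genes out of 23485 IDs in the tables (0.153%), since Hoxb3 had 2 IDs. The RefSeq gene table named 39 Hox symbols, of which Hoxa9, Hoxa11, Hoxd8 and Hoxd11 were not analysed here.

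Brains were taken from C57BL/6 wild-type embryos of stage E15.5 (embryonic days), and 3 female and 3 male samples labelled whole brain were sequenced. Both sexes were wild-type, and no treatment is given for either. RNA of several embryos was combined in each sample, so the spread between single embryos is not seen. The question of the design was whether transcripts differ in abundance between the sexes. The question asked here is also how far along the head-to-tail series of Hox genes the RNA of each sample reached.

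Hox genes encode transcription factors that bind DNA through a homeodomain and give cells of the embryo their position along the head-to-tail axis. Genes that descend from the same ancestral gene form a paralog group, numbered from 1 to 13 along the cluster. Genes with low numbers are switched on earlier and further forward, from the hindbrain backwards, and genes with high numbers later and further back, down to the lower spinal cord, the tail and the ends of the limbs. The forebrain and midbrain are known for lacking Hox expression, so in a brain dissection Hox RNA is a mark of the hindbrain and of anything behind it. Skin, muscle, cartilage and connective tissue of the neck and body also express these genes.

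On the mouse assembly NCBIM37 (mm9) the 9 Hoxa IDs lie within 105.5 kb of chromosome 6, at 52105366 to 52210874, and the 11 Hoxb IDs within 173.9 kb of chromosome 11, at 96055630 to 96229570. The 9 Hoxc IDs lie within 115.7 kb of chromosome 15, at 102751534 to 102867274, and the 7 Hoxd IDs within 96.8 kb of chromosome 2, at 74506367 to 74603200. All 35 genes shared a homeobox of 180 coding bases, and the identity between 2 homeoboxes ran from 46.1% to 93.9%, with a median of 61.7% over 595 pairs. The median was 80.6% within a paralog group (34 pairs) and 60.6% between groups.

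The stretch of 30 coding bases below belongs to the third helix of the homeodomain, which lies in the DNA groove. It is shown for the gene with the highest mean library-scaled count in paralog group 2 and in each of groups 5 to 13, read from NCBIM37 in the direction of the gene, because it shows how alike or unlike the members are in a part that all of them share. Capitals mark bases that differ from Hoxa5.
Hoxa2 (chr6:52113425-52113454, minus strand): aaaGtGtggttTcaGaacCggagAatgaag
Hoxa5 (chr6:52152646-52152675, minus strand): aaaatctggttccaaaacaggaggatgaag
Hoxb6 (chr11:96162138-96162167, plus strand): aaGatTtggttTcaGaacCggCgCatgaag
Hoxb7 (chr11:96150834-96150863, plus strand): aaGatctggttTcaGaacCggCgCatgaag
Hoxb8 (chr11:96145623-96145652, plus strand): aaaatctggttccaGaaTCggagAatgaag
Hoxb9 (chr11:96136108-96136137, plus strand): aaaatctggttTcaGaacCggCggatgaaA
Hoxd10 (chr2:74532333-74532362, plus strand): aaGatTtggttTcaaaacCgCCgAatgaaA
Hoxc11 (chr15:102787046-102787075, plus strand): aaaatTtggttTcaGaacaggagAatgaaA
Hoxc12 (chr15:102768874-102768903, plus strand): aaGatTtggttccaGaacCggagAatgaaA
Hoxc13 (chr15:102757776-102757805, plus strand): aCCatctggttccaGaaTCgACgCGtgaaA

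Hoxc13 differed from Hoxa5 at 10 of these 30 bases, and Hoxb4, Hoxa6 and Hoxa7 were identical to each other over them. Across whole transcripts, 589 gene pairs had gene models that did not overlap, and the longest exact run that any of them shared was 52 bases, between Hoxb4 and Hoxa6. Gene models of 6 pairs overlapped on the same strand, namely Hoxa3 with Hoxa2, Hoxa4, Hoxa5 and Hoxa6, Hoxd3 with Hoxd4, and Hoxb7 with Hoxb8. Hoxb7 and Hoxb8 shared a run of 1069 bases and Hoxd3 and Hoxd4 a run of 831 bases. How the counting treated reads in such stretches is not stated, so the counts of these genes are uncertain. Lengths were those of each gene's longest coding transcript, which can include such a run, so levels per kb of these genes are uncertain too.

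The library totals ran from 4908565 to 10294443 counts, the highest 2.1 times the lowest. Levels are given as CPM, counts scaled to library totals with the TMM factor, and 3 counts, taken as the floor of detection, were worth 0.300 to 0.597 CPM in the 6 samples. Intervals and floors cover counting error only. The sex markers matched the labels in every sample. Markers of some tissues outside the brain were above the forebrain markers, and others were below them. Forebrain markers summed to 393 to 526 CPM and pan-neuronal markers, a list added after values were seen, to 2819 to 3941 CPM, while skeletal muscle markers summed to 3956 to 6040 CPM, epidermis markers to 1622 to 3098 CPM and meninges and fibroblast markers to 10417 to 17976 CPM. Cartilage markers (126 to 268 CPM), sensory ganglion and Schwann cell markers (69.5 to 92.1 CPM), limb markers (30.7 to 64.9 CPM) and trunk organ markers (3.80 to 10.6 CPM) lay below the forebrain list.

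**Figure D1:**
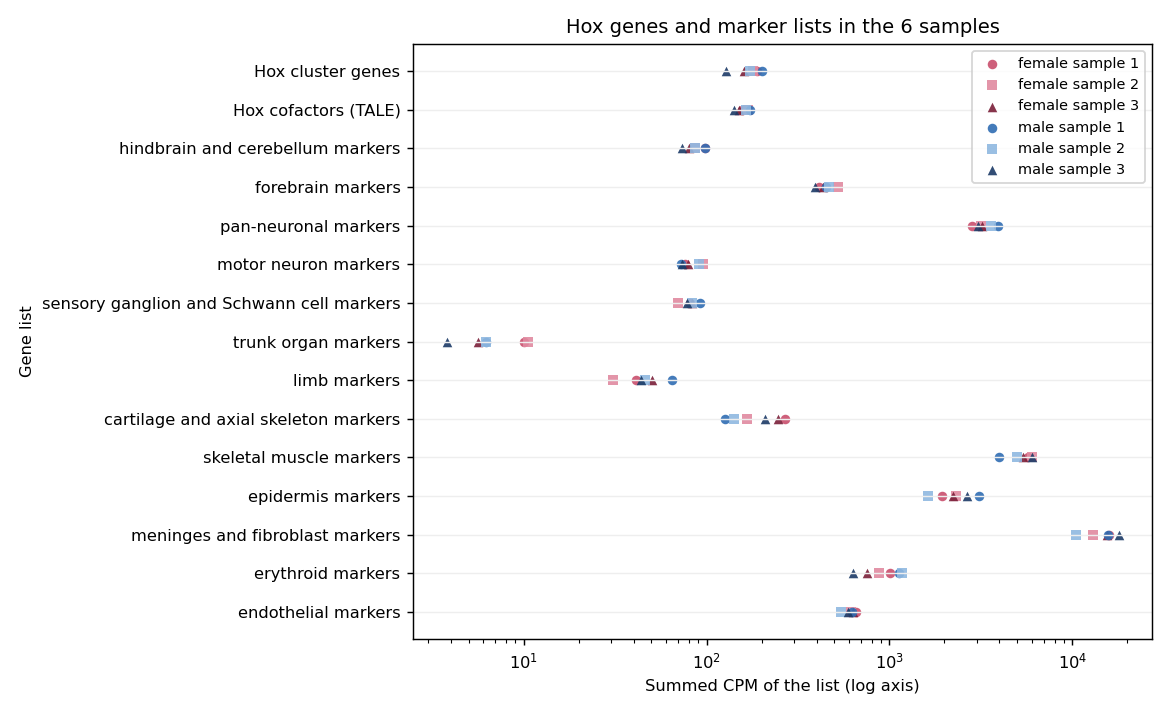
Summed CPM (log axis) of each marker list in the 6 samples, with each symbol 1 sample and the colour its sex. Skeletal muscle, epidermis, meninges and fibroblast markers lay above the forebrain list in every sample, and the trunk organ list lay lowest at 3.80 to 10.6 CPM.

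Hox RNA was present in every sample and, over the 36 IDs, came mostly from the front of the series. Counts over the 36 IDs were 1165, 907 and 1572 in the females (samples 1, 2 and 3, an order kept throughout) and 1934, 1130 and 1287 in the males. In CPM the sums were 188, 181 and 160 in the female samples and 200, 172 and 129 in the male samples. Male sample 1 was highest (95% exact Poisson interval 191 to 209 CPM) and male sample 3 lowest (122 to 136 CPM), and the female samples lay between them. The highest was 1.56 times the lowest, and 1.25 times when male sample 3 was left out. In pooled tissue, fewer Hox-expressing cells and less Hox RNA per cell cannot be told apart.

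Each sample had 22 to 25 of the 36 IDs above the floor of 3 counts, and 20 IDs were above it in every sample. In each sample 19 of the IDs above the floor belonged to groups 1 to 8. Hoxb9, Hoxd9 and Hoxc13 were the members of groups 9 to 13 above the floor in every sample. Going up from group 1, every group had an ID above the floor through group 10 in female samples 1 and 2 and in male samples 1 and 3, and through group 9 in female sample 3 and male sample 2. Group 11 was represented by 1 ID, Hoxc11, which did not pass the floor in any sample, while Hoxa11 and Hoxd11 were not analysed here, so in the 4 samples whose run reached group 10 its end rests on 1 gene. Group 13 was above the floor in all 6 samples, because Hoxc13 was. The step to group 10 rested on Hoxd10, at 4 to 11 counts where it passed and 2 where it did not. All of these readings use unscaled counts, although library totals differed. With counts scaled to the smallest library total, 19 to 25 IDs per sample passed the floor, and male sample 3 fell from 24 to 19. The runs are therefore no comparison of the samples at equal depth.

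**Figure D2:**
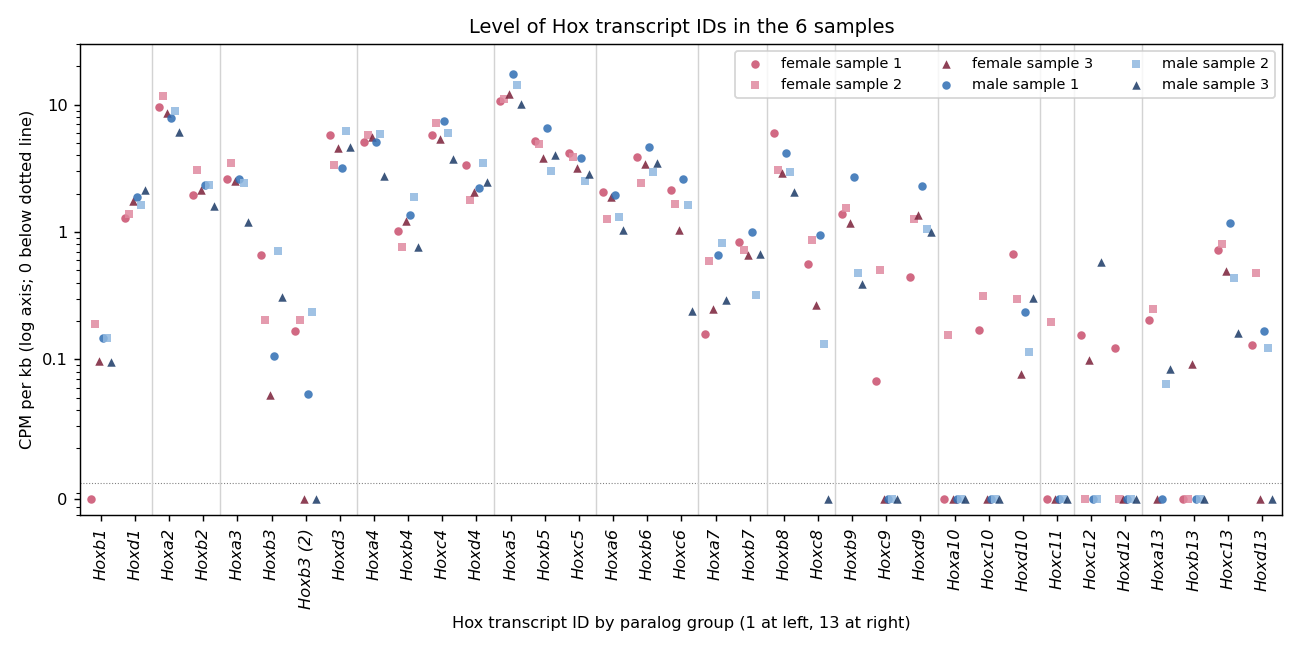
Level of 35 Hox IDs in CPM per kb of transcript (log axis, with 0 drawn under the dotted line) in the 6 samples, ordered by paralog group from 1 at the left to 13 at the right; grey lines separate the groups. Hoxa5 and Hoxa2 had the highest means, and from group 9 on many IDs were at 0 in several samples.

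To compare genes, CPM was divided by transcript length in kb. On this scale the level summed over a group was 1.87 CPM per kb in group 1, 11.1 in group 2, 7.56 in group 3, 14.7 in group 4 and 20.6 in group 5, each a mean of the 6 samples. It was 6.60 CPM per kb in group 6, 1.17 in group 7, 3.996 in group 8 and 2.62 in group 9, and then 0.389, 0.033, 0.160 and 0.899 in groups 10 to 13. Groups 1 to 5 held 78.2% ± 3.59 (SD, 6 samples) of the Hox level per kb, with a range of 73.4% to 82.8%. Groups 6 to 8 held 16.2% ± 2.61 and groups 9 to 13 held 5.60% ± 1.83. Hoxd8, Hoxa9, Hoxa11 and Hoxd11, all of group 8 or further back, were not analysed here. The genes missing from these shares thus all lie towards the back of the series. Group 5 was above group 4 within each of the 6 samples, although the ranges over samples met, at 17.0 to 27.96 CPM per kb for group 5 and 9.71 to 17.2 for group 4. By cluster, Hoxa genes gave 43.5% of the level per kb, Hoxb genes 24.5%, Hoxc genes 17.0% and Hoxd genes 15.1%, with 9, 10, 9 and 7 genes listed.

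**Figure D3:**
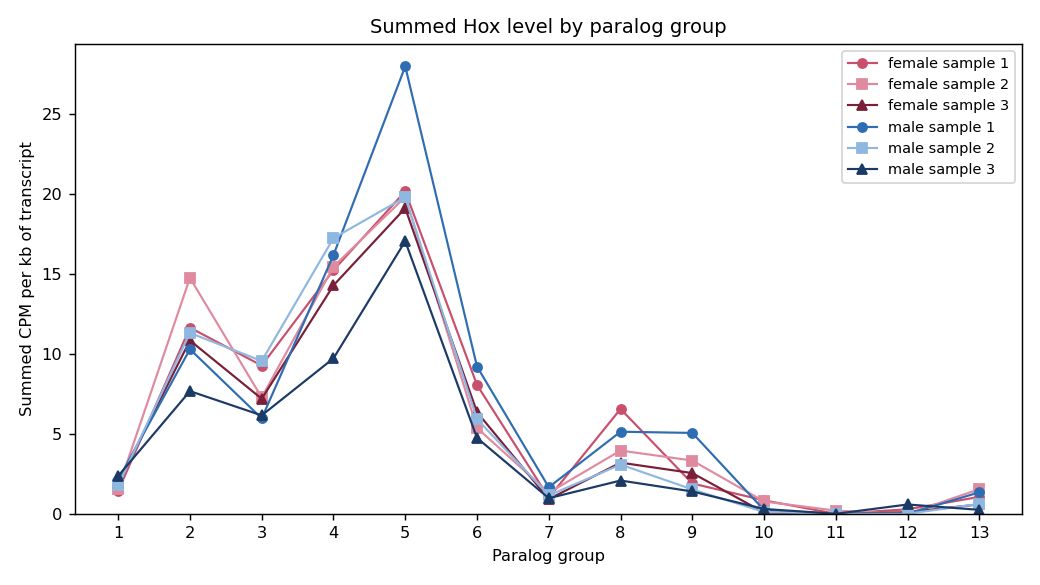
Summed level of each paralog group in CPM per kb, with 1 line and 1 kind of symbol for each of the 6 samples. Group 5 had the highest mean over the 6 samples (20.6, not drawn), and groups 10 to 12 lay below 1 CPM per kb in every sample.

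Group 1 genes act in the segments of the hindbrain. Hoxd1, which also serves in sensory neurons, had 15, 13 and 32 counts in females and 34, 20 and 40 in males. Its level was 1.69 ± 0.314 CPM per kb (SD, 6 samples). Hoxb1, which patterns the early hindbrain and then fades, had 0 to 3 counts in every sample, at or under the floor.

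Groups 2 and 3 mark the hindbrain segments and the neural crest that leaves them. Hoxa2, the selector of second pharyngeal arch identity and the front-most Hox gene of the hindbrain, had 145, 142 and 206 counts in females and 186, 142 and 147 in males. Per kb it was the second highest member at 8.83 ± 1.86 CPM per kb, highest in female sample 2 (11.7) and lowest in male sample 3 (6.06). Hoxd3, which acts in the upper neck vertebrae, had 127, 60 and 159 counts in females and 109, 143 and 164 in males. Its level was 4.64 ± 1.22 CPM per kb, lowest in male sample 1 and next lowest in female sample 2, so it did not follow the order of Hoxa2. Hoxb3 had 0 to 9 counts in its 2 IDs.

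The low counts of Hoxb3 stood beside a property of the whole table. mRNA genes with 1 RefSeq transcript model had a median of 726.5 counts over the 6 samples (11458 genes), and those with 2 or more models a median of 31 (5949 genes). Hoxa10 and Hoxb3 had 2 models each, with 2 and 36 counts over the 6 samples, against a median of 133 for the 32 Hox genes with 1 model. The part of the counting in these low values was not tested, so a low count of these genes is not read here as a low level.

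Groups 4 and 5 carried the largest share of the Hox counts, 42.6% to 49.0% in the 6 samples. Hoxc4, a gene of the lower hindbrain, neck and spinal cord, had 76, 76 and 111 counts in females and 154, 84 and 79 in males, which was 5.93 ± 1.36 CPM per kb. Hoxd4, a retinoic acid-responsive gene of the lower hindbrain, had 53, 23 and 52 counts in females and 55, 58 and 63 in males, or 2.56 ± 0.691 CPM per kb. Hoxa5, which acts in the brainstem, the neck skeleton and the breathing organs, had the highest mean level of all members, 12.6 ± 2.80 CPM per kb.

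In the female samples Hoxa5 had 125, 104 and 223 counts (10.8, 11.03 and 12.1 CPM per kb) and in the male samples 318, 175 and 190 (17.5, 14.2 and 10.1 CPM per kb). Male samples 1 and 2 lay above the female samples and male sample 3 below them, so the sexes overlapped. In female sample 2 Hoxa2 (11.7 CPM per kb) was above Hoxa5. Hoxb5, a gene of the neck, shoulder and enteric neurons, had 91, 69 and 105 counts in females and 180, 56 and 114 in males, or 4.61 ± 1.26 CPM per kb. Hoxc5 had 75, 57 and 91 counts in females and 108, 48 and 84 in males, or 3.40 ± 0.648 CPM per kb. The 6 highest means (Hoxa5, Hoxa2, Hoxc4, Hoxa4, Hoxd3 and Hoxb5, 12.6 to 4.61 CPM per kb) had ranges over samples that met their neighbours' in this order.

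Groups 6 to 8 act from the lower neck through the trunk. Hoxb6, a trunk and forelimb gene, had 47, 24 and 66 counts in females and 88, 38 and 68 in males, or 3.47 ± 0.756 CPM per kb. Hoxb7 had 20, 14 and 25 counts in females and 37, 8 and 26 in males. Hoxb8, known from the spinal cord and from a lineage of microglia, had 98, 41 and 76 counts in females and 107, 51 and 55 in males. Hoxb8 was highest in female sample 1 (5.99 CPM per kb) and lowest in male sample 3 (2.08), a ratio of 2.88. It stood at 3.53 CPM per kb on average and its neighbour Hoxb7, with which it shares the longest run of sequence, at 0.705. The length used for Hoxb7 (3831 bases, against 2645 for Hoxb8) can include that run, so its level per kb is uncertain.

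Hoxc6, a thoracic and limb gene chosen here after its values were seen, had the largest ratio between samples among the members above the floor in every sample. It had 22, 14 and 17 counts in females and 42, 18 and 4 in males, so male sample 1 was 10.9 times male sample 3 in CPM. The remaining members of groups 2 to 8 that were tested for sex (Hoxb2, Hoxa3, Hoxa4, Hoxb4, Hoxa6, Hoxa7 and Hoxc8) had 0 to 88 counts per sample and means of 0.462 to 5.02 CPM per kb.

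Groups 9 to 13 belong to the lower trunk, the hindlimb, the tail and the genital bud. Their listed members were a small part of the counted Hox RNA. Their summed CPM was 9.86, 13.9 and 7.75 in the female samples and 16.0, 5.34 and 5.19 in the male samples. Male sample 1 and female sample 2 were highest, and the exact Poisson intervals of male sample 1 (13.6 to 18.8 CPM) and male sample 3 (3.88 to 6.81 CPM) did not meet. As a share of each sample's Hox counts these groups made up 8.01% in male sample 1 (95% Clopper-Pearson interval 6.84% to 9.32%) and 3.10% in male sample 2 (2.17% to 4.28%). The share in the front-most groups 1 to 3 was 25.3% in male sample 1 (23.4% to 27.3%) and 33.4% to 37.1% in the other 5 samples.

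**Figure D4:**
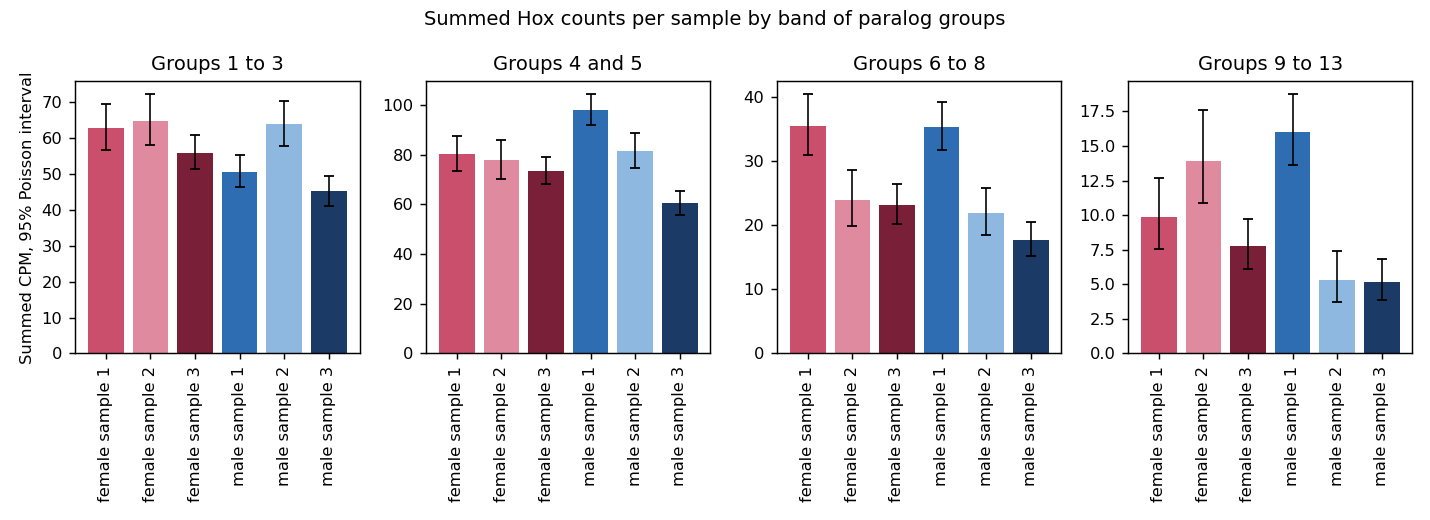
Summed CPM of Hox groups 1 to 3, 4 to 5, 6 to 8 and 9 to 13 in each sample, with 95% exact Poisson intervals that cover counting error only. Male sample 1 was highest in groups 4 to 5 (98.0 CPM) and 9 to 13 (16.0 CPM) but next to lowest in groups 1 to 3 (50.7 CPM).

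The group 9 to 13 signal rested on a few genes. Hoxb9, a gene of the chest and rib cage, had 22, 20 and 30 counts in females and 68, 8 and 10 in males, and its CPM in male sample 1 was 7.04 times that in male sample 3. Hoxd9, which acts in the lumbar cord and limbs, had 6, 14 and 29 counts in females and 49, 15 and 22 in males. Both were highest in male sample 1, but their lowest samples differed, male sample 3 for Hoxb9 and female sample 1 for Hoxd9.

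Hoxc13, known for its part in hair, nails and tongue papillae, had 11, 10 and 12 counts in females and 28, 7 and 4 in males. It was above the floor in every sample, while no other gene of groups 10 to 13 was. Hoxd10, a gene of the lumbar motor column and the limb, had 11, 4 and 2 counts in females and 6, 2 and 8 in males. Epidermis markers were also highest in male sample 1 (3098 CPM) but were next highest in male sample 3 (2648 CPM), where Hoxc13 was lowest, and their part in the Hoxc13 counts was not tested.

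The other members of groups 9 to 13 were near or under the floor. Hoxc9 had 1 count in female sample 1 and 6 counts in female sample 2, and had 0 counts in the other 4 samples. Hoxc12 had 6 counts in male sample 3, and Hoxd13 had 6 in female sample 2 and 4 in male sample 1. Hoxa10, Hoxc10, Hoxc11, Hoxd12, Hoxa13 and Hoxb13 had at most 3 counts in any sample, as did Hoxb1 and the second Hoxb3 ID. Hoxc11 had 2 counts in female sample 2 and none elsewhere, where a count of 0 allows up to 0.300 to 0.485 CPM.

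Female sample 2 held several of these last traces. Besides Hoxc9 and Hoxc11 it had the 2 counts of Hoxa10 and 9 counts of Hotair, a non-coding RNA of the posterior Hoxc cluster, for which female sample 1 had 2 and the other 4 samples none. Mnx1, a transcription factor of motor neurons and other posterior cells, had 7 counts in the same sample, 2 in male sample 3 and 0 elsewhere. These genes were picked after their values were seen. Over all genes, female sample 2 had the fewest IDs at 0 counts (4120, against 4701 to 6743 in the other samples) although its total was the lowest, and the part of this in the traces was not tested.

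The sexes were compared for the 23 Hox IDs that reached 10 counts in any sample, in a fit over all 13374 IDs that did. No Hox ID was called by edgeR's quasi-likelihood test at an adjusted p under 0.05, where 4 of all tested IDs were (0.0299%). None had an unadjusted p under 0.05 in edgeR, against 11.5% of all tested IDs. DESeq2 gave an adjusted p to 6114 of the 13374 IDs and called 95 of them (0.71% of all tested), but of the 23 Hox IDs it gave one only to Hoxa5 (0.553), so the other 22 could not be called by it. None had CPM values that did not overlap between the sexes, against 17.1%. Summed over the family, the level was 176 ± 14.5 CPM in the female and 167 ± 36.0 CPM in the male samples (SD, 3 samples each), a difference within the spread of the male samples.

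Of the 23 tested IDs 8 were higher and 15 lower in males, and of all tested IDs 49% were higher. The median log2 fold change of male over female was -0.14 for the Hox IDs and -0.01 for all tested IDs. This split turned with 1 library: without male sample 3, 14 Hox IDs were higher in males and the median was 0.083. The median biological coefficient of variation was 0.284 for the Hox IDs and 0.194 for all tested IDs.

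The lowest p in edgeR's test belonged to Hoxa2, with a log2 fold change of -0.39 (SE 0.20, 95% interval -0.83 to 0.05) and an adjusted p of 0.475. Its female mean was 24.2 ± 3.70 CPM and its male mean 18.5 ± 3.55 CPM. Hoxa5 lay the other way, at 21.2 ± 1.34 CPM in the female and 26.2 ± 6.96 CPM in the male samples, with a log2 fold change of 0.30 (SE 0.21, 95% interval -0.15 to 0.75). With 1 sample left out the log2 fold change of Hoxa2 ranged from -0.50 (without male sample 2, edgeR p of 0.0428 unadjusted and 0.549 adjusted) to -0.23 (without male sample 3). That of Hoxa5 ranged from 0.092 (without male sample 1) to 0.50 (without male sample 3, edgeR p of 0.0261 unadjusted and 0.283 adjusted). Hoxb9 had a log2 fold change of -0.16 (95% interval -1.51 to 1.19), which became -1.66 without male sample 1, with an edgeR p of 0.00652 unadjusted and 0.300 adjusted. The log2 fold change of Hoxb9 was -0.75 with 1 RUVr factor (a term for unwanted variation, estimated from residuals) in edgeR, -0.85 with 1 in DESeq2 and -0.69 with the replicate block.

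**Figure D5:**
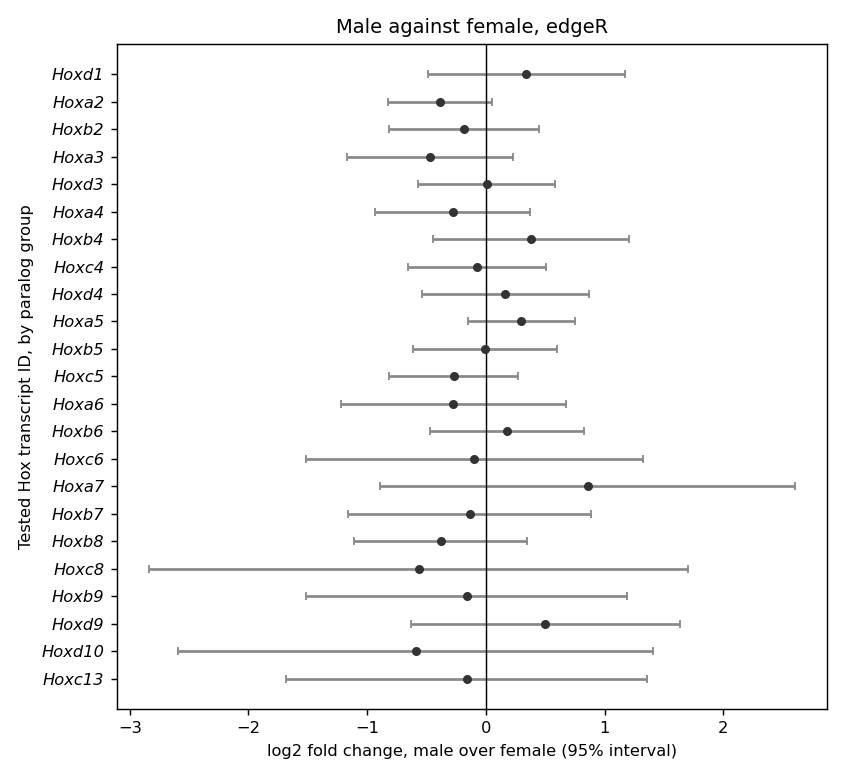
Log2 fold change of male over female for the 23 tested Hox IDs, with 95% intervals from edgeR's quasi-likelihood fit, ordered by paralog group. Every interval included 0, and those of 13 IDs reached a change of 1 on the log2 scale.

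The intervals set what these samples could show. For 10 of the 23 IDs, the 95% interval lay within 1 on the log2 scale in either direction, so a 2-fold difference in mean lay outside it. For the other 13 the interval reached 1, so a sex difference of that size lay inside it. SEs ran from 0.203 for Hoxa2 to 1.05 for Hoxc8, and the wide ones belonged to genes with few counts.

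The extremes of many members fell in the same samples. Male sample 1 was highest for 10 of the 23 tested IDs, 9 of the 14 in groups 5 to 13 and 1 of the 9 in groups 1 to 4, and it was highest for 25.5% of all 13374 tested IDs. Male sample 1 also had the largest total, the most IDs at 0 counts (6743) and the lowest TMM factor (0.940). Limb markers were highest in it (64.9 CPM), mostly through Pitx1 (47.9 CPM) and Msx1 (14.9 CPM). Tbx5, of the same list, was highest in female sample 2 (3.18 CPM, against 1.96 CPM in male sample 1). Male sample 3 was lowest for 12 of the 23, 7 of them in groups 5 to 13, and for 9.23% of all tested IDs. Skeletal muscle markers were lowest in male sample 1 (3956 CPM) and highest in male sample 3 (6040 CPM), and hindbrain and cerebellum markers were highest in male sample 1 (98.2 CPM) and lowest in male sample 3 (73.0 CPM). Forebrain markers were also lowest in male sample 3 (393 CPM) but highest in female sample 2. The part of tissue makeup and of these library properties in the Hox levels was not tested.

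Non-coding RNAs inside the clusters gave another reading of the same regions. Of 15 such IDs, 4 had enough counts to test. Haglr, transcribed opposite to the Hoxd genes between Hoxd1 and Hoxd3, had 43, 60 and 64 counts in females and 59, 35 and 42 in males. The log2 fold change of Haglr, male over female, was -0.69 (SE 0.32) and did not pass edgeR's test (adjusted p = 0.437). Hoxaas2 had 28, 0 and 27 counts in females and 9, 18 and 24 in males, and Gm15050 had 5 to 17 counts per sample. Hoxb3os, opposite to Hoxb3, had 9, 10 and 17 counts in females and 7, 2 and 4 in males, with an edgeR adjusted p of 0.385. Haglr and Hoxb3os did not overlap between the sexes in CPM, as 17.1% of all tested IDs did not. The mean of 8.17 counts of Hoxb3os is low, and it was named after its values were seen. The use of strand in counting is not stated, so reads of these RNAs and of the Hox genes they overlap cannot be told apart.

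No ID was called for sex in the lists of Hox partners and regulators, against 0.0299% of all tested IDs, so these counts of 0 are no result about the lists. The TALE homeodomain proteins bind DNA together with Hox proteins, and their list summed to 142 to 172 CPM, with 0 of 5 tested IDs called. Most of it was Pbx2, a partner of Hox proteins, at 137 CPM on average.

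Upstream regulators switch the clusters on and set their borders. Their list summed to 226 to 251 CPM, and 0 of 11 tested IDs were called. Among its highest members were Gdf11, a signal that sets trunk-to-tail Hox expression, at 76.5 CPM, and Aldh1a2, which makes retinoic acid, at 56.4 CPM.

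Polycomb proteins keep Hox genes silent where they are not used, and trithorax proteins keep them active. The Polycomb list summed to 479 to 562 CPM with 0 of 10 tested IDs called, with Bmi1 at 193 CPM and Cbx2 at 87.1 CPM among its highest. Ezh2, the methyltransferase that lays the Polycomb mark, and its partner Suz12 had 0 to 4 counts per sample, and the part of the counting in these low values was not tested, so the sum and order of the list are uncertain. Of the trithorax list 2 IDs were tested and 0 called. Kdm6b, which removes the Polycomb mark, had a log2 fold change of -0.39 (edgeR adjusted p = 0.400) and Wdr5, a core subunit of the methyltransferase complexes, one of 0.32 (edgeR adjusted p = 0.395), and both did not overlap between the sexes in CPM, as 17.1% of all tested IDs did not.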

How the data were processed

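Total RNA of 3 female and 3 male pools, labelled whole brain, was analysed, with sex and replicate number taken from the labels. The values the authors deposited are raw counts for RefSeq transcript IDs, in a separate table for each sample and without normalisation. The submitters' processing notes name Trimmomatic 0.32, TopHat2 2.1.1, Cufflinks 2.2.1, featureCounts 1.5.1 and the build mm9. The treatment of multi-mapped, shared and stranded reads is not given in the sources used here.

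Symbols came from a RefSeq gene table for 23359 IDs (99.5%), and positions, lengths and sequences from NCBIM37 with its GENCODE annotation. Lengths were found for all 36 Hox IDs. The sexes were compared with edgeR 4.0.16 (quasi-likelihood F test, TMM, IDs reaching 10 counts in any sample, Benjamini-Hochberg over all tested IDs, threshold 0.05) in R 4.3.3. Alternatives were DESeq2 1.42.0, RLE factors, other count filters, 1 RUVr factor, IDs summed per gene, a replicate block and each sample left out. The fit was tested on simulated data.

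Genes were named by rule: the 2 highest per cluster per kb, the highest CPM per paralog group, members of groups 9 to 13 with 10 or more counts in a sample, and any called, at an unadjusted p under 0.05 or not overlapping. From other lists the 3 highest were eligible. Some genes and sequences under these rules are not reported here. The members, the rule and the lists were chosen with earlier results of these data known. Whether pools shared litters is not stated, and p-values measure the spread between these pools.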

Additional observations from a re-analysis of the deposited data

How the results depend on the processing

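No Hox ID was called under any of the 8 other settings or with any 1 sample left out, where the lowest edgeR or DESeq2 adjusted p of a Hox ID ranged from 0.283 to 0.809. DESeq2 gave an adjusted p to 1 of the 23 Hox IDs, and to 13 with 1 RUVr factor, so the other 22 and 10 could not be called there. The count over all IDs moved from 4 to 276 with no low-count filter, 95 with DESeq2, 36 with 1 RUVr factor in edgeR and 348 with 1 RUVr factor in DESeq2. With 1 sample left out it ranged from 4 to 51, and it was 51 when female sample 3 was left out and 12, 8 and 7 when male samples 1, 2 and 3 were. The number of Hox IDs higher in males ranged from 6 to 14, with 14 without male sample 3, and the ratio of highest to lowest summed Hox CPM from 1.25 to 1.56, with 1.25 without male sample 3. The causes were not tested.

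Log2 fold changes near 0 changed sign. Hoxd3 went from 0.0073 to -0.0012 with RLE factors, -0.013 with RUVr in edgeR and -0.015 with RUVr in DESeq2. Hoxb5 went from -0.0055 to 0.022 without the filter and 0.0025 with IDs summed per gene. Among the 15 Hox IDs named by rule and tested, the ranges with 1 sample left out that crossed 0 were -0.37 to 0.21 for Hoxb5, -0.024 to 0.31 for Hoxb6, -0.54 to 0.18 for Hoxb7, -0.68 to 0.028 for Hoxb8, -1.66 to 0.27 for Hoxb9, -1.21 to 0.30 for Hoxc13, -0.33 to 0.17 for Hoxc4, -0.23 to 0.22 for Hoxd3, -0.034 to 0.47 for Hoxd4 and -0.016 to 0.80 for Hoxd9.

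The replicate numbers did not pair the samples: same-numbered samples deviated from their group means with correlations of -0.287 to -0.0643, and 0 of the 3 female samples correlated best with its own number. With the replicate block 4 IDs and no Hox ID were called, the median Hox log2 fold change was -0.24 and that of Hoxd3 was -0.0077. In every sample 9 IDs were at or under the floor of 3 counts, where no level or difference can be read.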
